A study of Mus musculus with 6 samples.

Results

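Fgf5, Otx2, Pou3f1, Sox3, Zic2, Cldn6 and Fzd2 are genes that mark the formative and primed states of the mouse epiblast, and their RNA was measured in mouse embryonic stem cells with and without the methyltransferase gene Mettl5. They were chosen by name, and all 7 were found among the 24191 genes of the deposited table. The cells were the J1 line, labelled as embryonic stem cells and kept in serum with LIF, a cytokine that holds mouse stem cells undifferentiated, for 7 days before RNA was taken. One group was wild type (WT), and in the other the Mettl5 genotype was homozygous null (Mettl5 -/-, called the knockout here), with 3 polyA RNA libraries in each group. Apart from Mettl5, both groups carry the same labels. Whether the knockout cells are 1 clone, and whether the 3 libraries came from separate cultures, the labels do not say, so p-values measure the spread between these libraries, which may be technical.

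The epiblast is the tissue of the early embryo that gives rise to the body. Embryonic stem cells resemble its earliest, naive state. On leaving that state cells pass through a formative phase and then a primed one, in which they can respond to signals for germ layers. FGF and activin signalling favour this transition, and LIF with WNT holds cells back from it. OTX2 and POU3F1 (also called OCT6) are transcription factors of the formative state, and Fgf5 is the classical marker that naive cells lack.

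Depth, estimated roughly from the deposited values, was 38540000 to 59640000 fragments per library. Levels are given on the deposited TPM scale, a measure of transcript abundance within a library, which is corrected for transcript length, and they compare genes as well as groups. Fold changes come from the deposited scaled reads, as log2(scaled reads + 1) in the knockout minus WT, with the standard error (SE), and the threshold was a Benjamini-Hochberg adjusted p of 0.05 in limma over 24183 genes. Mettl5 itself was at 48.6 to 50.3 in WT and at 3.32 to 3.65 in knockout libraries. All 8 markers of undifferentiated stem cells checked reached a TPM level of at least 1 in either group. Their summed level was 4829 to 5229 in WT and 4818 to 5257 in the knockout. Of the 8, 3 were called higher and 4 lower, where 33.6% of all genes were called higher and 28.9% lower. Dppa5a, the most abundant, rose from 2330 ± 167 to 2729 ± 185, while Pou5f1 fell from 1498 ± 54.2 to 1330 ± 41.7 (SD, n = 3). Log2 fold changes were larger for Sox2 (-0.58), Utf1 (-0.52), Tdgf1 (-0.46), Lin28a (0.61) and Sall4 (0.47), and Nanog was not called. The sums alone thus do not show the markers unchanged. In bulk RNA, fewer cells of a type and less RNA per cell cannot be told apart.

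Of the 7 genes, 6 were higher and 1 was lower in the knockout. Fgf5, Cldn6, Fzd2, Pou3f1, Sox3 and Zic2 rose, and Otx2 fell. Over all genes tested 33.6% were called higher and 28.9% lower, so 62.6% were called in either direction and a call alone sets no gene apart. The knockout and WT libraries did not overlap on the TPM scale for any of the 7, as for 68.1% of all genes. The median fold change of the 7 was 1.44 on the log2 scale, beside 0.00 for all genes tested. The 7 and the lists used further on were picked with earlier results of these data in view, so such medians and counts describe the genes and do not set them apart from other genes.

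**Figure D1:**
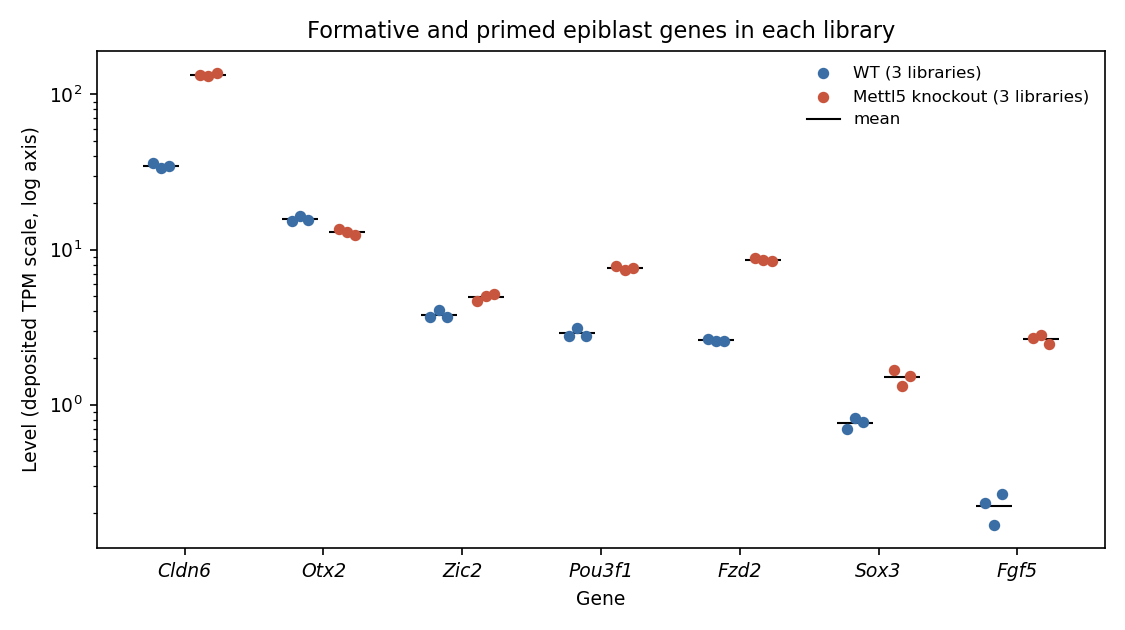
Level of each gene in each of the 6 libraries on the deposited TPM scale (log axis), with WT in blue, knockout in red and a black line at each group's mean. Fgf5 moves from 0.167 to 0.265 in WT to 2.46 to 2.81 in the knockout, and Otx2 is the gene whose knockout points lie below its WT points.

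Fgf5 (ENSMUSG00000029337, mm10 chromosome 5, 98254184 to 98277030, plus strand) encodes a secreted fibroblast growth factor. Its level was 0.232, 0.167 and 0.265 in the WT libraries, in order of replicate number, and 2.68, 2.81 and 2.46 in the knockout ones. The highest WT library was thus far below the lowest knockout library. The means were 0.221 ± 0.05 and 2.65 ± 0.176 (SD, n = 3), a 12.0-fold ratio, and the change was 3.59 on the log2 scale (SE 0.18, adjusted p 1.65e-07 in limma). The WT values correspond to an estimated 14 to 21 fragments per library, against 175 to 269 in the knockout. Fgf5 has 2 annotated transcripts, and its deposited values were not whole multiples of 1 read, so these estimates are rough. The coefficient of variation of its WT values, 22.6%, was the widest of the 7. Fgf5 stood at the 18.6th percentile of all listed genes by level in WT and at the 50th in the knockout.

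Fzd2 (ENSMUSG00000050288, mm10 chromosome 11, 102604396 to 102608058, plus strand) encodes a frizzled receptor for WNT ligands and is annotated as a single exon. It was at 2.64, 2.58 and 2.56 in WT and at 8.80, 8.5 and 8.48 in the knockout. The libraries of each group lay close together, with a coefficient of variation of 1.49% in WT. The means were 2.59 ± 0.0386 and 8.59 ± 0.178 (SD, n = 3), a change of 1.78 on the log2 scale (SE 0.0391, adjusted p 8.63e-10 in limma). Most called genes of chromosome 11 went the other way: of its 1787 tested genes 14.4% were higher and 57.5% lower, and the median was -0.41. With log2 values centred per chromosome, the fold change of Fzd2 was 2.17.

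Otx2 (ENSMUSG00000021848, mm10 chromosome 14, 48657677 to 48673819, minus strand) encodes a homeobox factor that acts on formative enhancers and later patterns the forebrain. Its level was 15.3, 16.4 and 15.6 in WT and 13.5, 12.96 and 12.3 in the knockout. Each knockout library was below each WT library. The fall was small, from 15.8 ± 0.546 to 12.9 ± 0.565 (SD, n = 3), or -0.22 on the log2 scale (SE 0.0503, 95% interval -0.34 to -0.11, limma adjusted p 0.0035). Against a change of 1.5-fold it did not pass (limma adjusted p 1, and 0.000119 to 0.0173 under the other 17 alternatives). Otx2os1, a long noncoding RNA that overlaps Otx2 on the other strand, went from 0.518 ± 0.0303 to 0.21 ± 0.0644, or -1.16 on the log2 scale (adjusted p 0.00576 in limma). The sources used here do not say whether counting used strand, so reads from sequence common to both transcripts cannot be told apart. With both strands read, 139 of the 4300 stretches of 31 bases in Otx2 transcripts (3.23%) occur in any other annotated gene.

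Pou3f1 (ENSMUSG00000090125, mm10 chromosome 4, 124656807 to 124660655, plus strand) is a single-exon gene for a POU homeodomain factor. It was at 2.75, 3.13 and 2.79 in WT and at 7.78, 7.39 and 7.61 in the knockout, so that every knockout library was above every WT one. The means were 2.89 ± 0.207 and 7.59 ± 0.199 (SD, n = 3), a change of 1.44 on the log2 scale (SE 0.0556, adjusted p 2.77e-08 in limma). The annotated antisense transcript Gm2164 holds 301 of the 3819 stretches of 31 bases in the Pou3f1 transcript when both strands are read, and it was not analysed here.

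Sox3 (ENSMUSG00000045179, mm10 chromosome X, 60891366 to 60893430, minus strand) encodes a SOXB1 factor, a relative of SOX2 that continues into neural progenitors. Its level was 0.693, 0.817 and 0.77 in WT and 1.68, 1.31 and 1.54 in the knockout. Knockout replicate 2 was the lowest of its group and still above every WT library. The means were 0.76 ± 0.0626 and 1.51 ± 0.187 (SD, n = 3), a change of 1.03 on the log2 scale (SE 0.124, adjusted p 6.37e-05 in limma). The estimated fragments behind these values were 70 to 92 in WT and 151 to 199 in the knockout.

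Zic2 (ENSMUSG00000061524, mm10 chromosome 14, 122475435 to 122479852, plus strand) encodes a zinc finger factor of primed epiblast and neural tissue. It was at 3.67, 4.06 and 3.68 in WT and at 4.67, 5.02 and 5.18 in the knockout. The groups were separate, but the gap between the highest WT and the lowest knockout library was small. The means were 3.80 ± 0.222 and 4.96 ± 0.262 (SD, n = 3), a change of 0.44 on the log2 scale (SE 0.0684, 95% interval 0.28 to 0.59, limma adjusted p 0.000383). Against a change of 1.5-fold it did not pass (limma adjusted p 1, and 0.000358 to 0.00511 under the other 17 alternatives).

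Cldn6 (ENSMUSG00000023906, mm10 chromosome 17, 23679249 to 23682446, plus strand) encodes a claudin, a membrane protein of tight junctions that is abundant in embryonic epithelia. It was at 35.9, 33.4 and 34.6 in WT and at 134, 131 and 137 in the knockout. It was the most abundant of the 7 in every library, and its groups were the farthest apart on a linear scale. The means were 34.6 ± 1.23 and 134 ± 2.78 (SD, n = 3), a change of 2.01 on the log2 scale (SE 0.0329, adjusted p 1.34e-10 in limma). It reached the 95.5th percentile of all listed genes by level in the knockout, from the 84.6th in WT.

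Cldn6 lies 138 bases from Cldn9, a claudin gene read in the opposite direction, and the sequences below show where their coding regions are identical over the longest run. Capitals mark the 37 shared bases in the annotated transcripts (GENCODE M21), and lower case marks 20 bases on either side, where 6 of 40 positions differ. The Cldn6 stretch is chr17:23681129-23681205 on the plus strand, the Cldn9 stretch chr17:23683508-23683584 on the minus strand, and both are printed 5′ to 3′.
Cldn6: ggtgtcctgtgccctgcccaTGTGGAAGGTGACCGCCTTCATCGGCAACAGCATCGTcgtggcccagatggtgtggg
Cldn9: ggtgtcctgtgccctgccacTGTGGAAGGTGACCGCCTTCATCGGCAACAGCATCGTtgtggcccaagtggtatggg
Of the 1718 stretches of 31 bases in Cldn6 transcripts, 7 (0.407%) also occur in another gene, and that gene is Cldn9. Cldn9 moved the other way from Cldn6. It was at 2.07 ± 0.197 in WT and 1.51 ± 0.115 in the knockout (SD, n = 3), or -0.39 on the log2 scale (SE 0.11, adjusted p 0.0114 in limma). For the remaining genes the share of such stretches found in other genes was 0.316% in Zic2, 0.934% in Sox3, 1.64% in Fgf5, 1.90% in Fzd2, 3.23% in Otx2 and 8.17% in Pou3f1. The Fzd2 stretches were mostly shared with Fzd1 and the Sox3 ones with Sox1. All 139 shared stretches of Otx2 also occur in Gm49154. Of the 41 of Fgf5, 32 occur in Nrp2, and the 41 together are found in 2822 other genes.

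By level the order in WT was Cldn6, Otx2, Zic2, Pou3f1, Fzd2, Sox3 and Fgf5. In the knockout it was Cldn6, Otx2, Fzd2, Pou3f1, Zic2, Fgf5 and Sox3. The ranges of neighbours in either order did not overlap. Zic2 thus went from the third to the fifth place, Fzd2 from the fifth to the third, and Fgf5 passed Sox3. By fold change the order was Fgf5 (95% interval 3.18 to 3.99), Cldn6 (1.94 to 2.09), Fzd2 (1.69 to 1.86), Pou3f1 (1.32 to 1.57), Sox3 (0.75 to 1.31), Zic2 and Otx2. None of these intervals overlapped its neighbour, although those of Pou3f1 and Sox3 nearly touched. The order by fold change depended on the scaling and on the pseudocount. On the TPM column Cldn6 (1.92) was above Fgf5 (1.58), where a pseudocount of 1 weighs more on low genes. The plain ratio of mean TPM levels was still larger for Fgf5 (12.0-fold) than for Cldn6 (3.87-fold). With chromosome centring Fzd2 (2.17) was above Cldn6 (1.94).

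The ratio of a pair of genes within 1 library does not depend on a factor applied to that whole library. It does depend on centring per chromosome where the genes lie on different chromosomes. Otx2 was taken as the denominator after the values were seen, because it was the gene that fell. Pou3f1 was at 17.96%, 19.1% and 17.8% of the Otx2 level in WT and at 57.8%, 57.0% and 61.6% in the knockout. Fzd2 moved from 16.4% ± 0.719 to 66.5% ± 1.88 and Zic2 from 24.1% ± 0.615 to 38.4% ± 3.67 of the Otx2 level (SD, n = 3). Fgf5 stood at 1.41% ± 0.351 of Otx2 in WT and at 20.5% ± 1.017 in the knockout. Relative to Pou5f1, which encodes OCT4, Otx2 was at 0.983%, 1.12% and 1.06% in WT and at 0.985%, 1.01% and 0.924% in the knockout, and these ranges overlap. Relative to the naive marker Zfp42, Otx2 was at 2.64%, 2.79% and 2.69% in WT and at 5.61%, 5.51% and 5.20% in the knockout, where Zfp42 itself was at 238 ± 2.59 against 584 ± 4.32.

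The 7 genes kept their direction under 5 scalings of the libraries. Rescaling to equal totals moved the median of all genes by -0.15 on the log2 scale, and each of the 7 was lower by about that shift. With equal totals Otx2 was at -0.38 and Zic2 at 0.28. On the TPM column, where a pseudocount of 1 weighs more on low genes, Fgf5 was at 1.58 and Sox3 at 0.51.

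**Figure D2:**
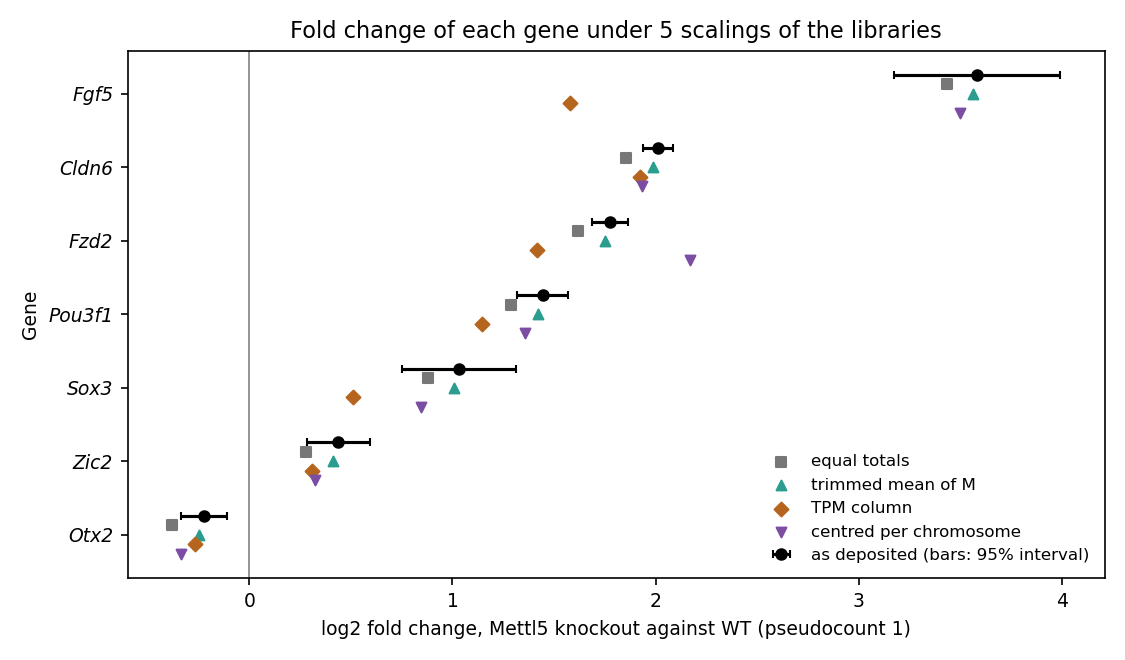
The log2 fold change of each gene (knockout against WT, pseudocount 1) as deposited, in black with its 95% interval, and under 4 other scalings. Otx2 lies left of 0 and the other genes right of 0 under all 5, with Fgf5 lower on the TPM column (1.58) and Fzd2 higher when centred per chromosome (2.17).

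RefSeq promoter sequence (build GRCm38.p6) was at hand for 3 of the 7 genes: Fgf5 and Cldn6, which rose, and Otx2, which fell. The bases before the start site are shown 5′ to 3′ on the gene's strand, with annotated exons left out, for the gene with the largest rise, the most abundant gene and the gene that fell. Fgf5 is chr5:98253934-98254183 and Cldn6 is chr17:23679115-23679248, both on the plus strand. Otx2, at the farthest upstream of its listed starts, is chr14:48667645-48667894 on the minus strand, which lies between exons of the longer GENCODE gene. Capitals mark matches to any motif searched.
Fgf5: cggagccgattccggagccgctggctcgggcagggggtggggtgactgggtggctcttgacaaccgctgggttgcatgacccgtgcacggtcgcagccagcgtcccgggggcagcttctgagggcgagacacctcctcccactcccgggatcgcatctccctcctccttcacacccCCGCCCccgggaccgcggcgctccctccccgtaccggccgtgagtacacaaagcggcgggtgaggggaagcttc
Cldn6: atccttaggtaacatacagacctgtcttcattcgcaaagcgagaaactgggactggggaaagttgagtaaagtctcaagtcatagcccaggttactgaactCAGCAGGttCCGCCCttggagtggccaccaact
Otx2: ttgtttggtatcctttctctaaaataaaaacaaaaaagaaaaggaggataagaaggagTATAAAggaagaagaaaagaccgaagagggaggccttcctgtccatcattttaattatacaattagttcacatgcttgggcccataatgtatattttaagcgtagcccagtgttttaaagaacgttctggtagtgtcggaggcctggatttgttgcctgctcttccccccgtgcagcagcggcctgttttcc
The Fgf5 window was 70.8% G and C with 24 CpG pairs in 250 bases, the Cldn6 window 49.3% with 9 in 250 bases before its start, and the Otx2 window 42.0% with 6. The median over 32851 promoter windows was 6 CpG pairs, with Fgf5 at the 89.3rd percentile, Cldn6 at the 62.2nd and this Otx2 start at the 53.7th. The other 3 listed Otx2 starts had 8, 9 and 14 CpG pairs, and Cldn6 lay within the range of the Otx2 starts. Both strands were searched. Fgf5 and Cldn6 each held a GC box (GGGCGG), found in 32.7% of 32851 promoter windows of 250 bases and in 14.5% of windows cut to the 134 bases shown for Cldn6. The Cldn6 window also held CAGCAGG, a motif of ZIC factors, found in 4.41% of such shorter windows, and Otx2 held TATAAA, found in 12.4% of the longer ones. The POU octamer ATGCAAAT, the OTX motif TAATCC, the SOX motif ACAATG, the TCF/LEF motif CTTTGAT, the TEAD motif GGAATG and the AP-1 motif TGANTCA had no match in these 3 windows. They occur in 1.60%, 6.25%, 10.7%, 3.21%, 12.6% and 6.75% of the longer windows. In windows cut to the length shown for Cldn6 the shares are 0.843%, 3.52%, 6.1%, 1.78%, 7.29% and 3.47%. A match is a run of letters and not a measured binding site.

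Other genes of the formative and primed states moved in both directions. Of 35 tested beyond the 7, 24 were higher and 8 lower, where 33.6% of all genes were called higher and 28.9% lower. Their median log2 fold change was 0.75, beside 0.00 for all genes. With equal totals, 21 were higher and 9 lower. Among 16 further transcription factors 10 were higher and 5 lower (8 and 5 with equal totals). Hmga2, a chromatin architectural factor, rose in TPM level from 3.13 ± 0.126 to 58.0 ± 1.04 (SD, n = 3), and the SOX factor gene Sox11 and the zinc finger gene Sall2 had log2 fold changes of 1.65 and 1.78. Etv5 was called higher as deposited (0.12) but was at -0.03 and not called with equal totals.

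The 5 lower factors, named after their values were seen, were Etv4 (-1.30), Tcf15 (-1.02), Utf1 (-0.52), Foxp1 (-0.30) and Pou2f3 (-1.88). Tcf15, a bHLH factor that primes cells for differentiation, went from 64.0 ± 3.51 to 30.1 ± 1.4 on the TPM scale (SD, n = 3). Etv4, an ETS factor induced by FGF signalling, went from 94.4 ± 4.14 to 36.4 ± 1.65. Etv4, on chromosome 11, was at -0.90 and still called lower when values were centred per chromosome (limma adjusted p 2.64e-07). Foxp1, on chromosome 6, was then at -0.01 and not called.

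Among 19 effectors 14 were higher and 3 lower, beside 33.6% and 28.9% of all genes, and the median of the effectors was 1.06. Igfbp3, a binding protein of insulin-like growth factors, rose in TPM level from 13.1 ± 0.249 to 93.1 ± 1.07, and Cdh2, which encodes N-cadherin, from 1.29 ± 0.0311 to 12.0 ± 0.605 (SD, n = 3). Lpar4, a receptor for lysophosphatidic acid, had a log2 fold change of 1.96. The de novo DNA methyltransferase genes did not move together, and are given after their values were seen. Dnmt3b rose from 83.0 ± 0.589 to 120.0 ± 1.24, whereas Dnmt3a fell from 126 ± 6.39 to 71.4 ± 2.55 and their cofactor gene Dnmt3l from 303 ± 13.2 to 152 ± 5.57. The third lower effector was the lactate transporter gene Slc16a3 (-0.72). Of 18 naive pluripotency genes 14 were lower and none was higher (median -0.68), beside 28.9% of all genes lower and 33.6% higher. With equal totals 17 of the naive genes were lower. With chromosome centring 1 was higher, Nanog (0.32), which was not called as deposited (0.04) and was called lower with equal totals (-0.12). Centring also removed the lower calls of Klf2 and Stat3, and added lower calls for Klf5 and Tbx3.

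**Figure D3:**
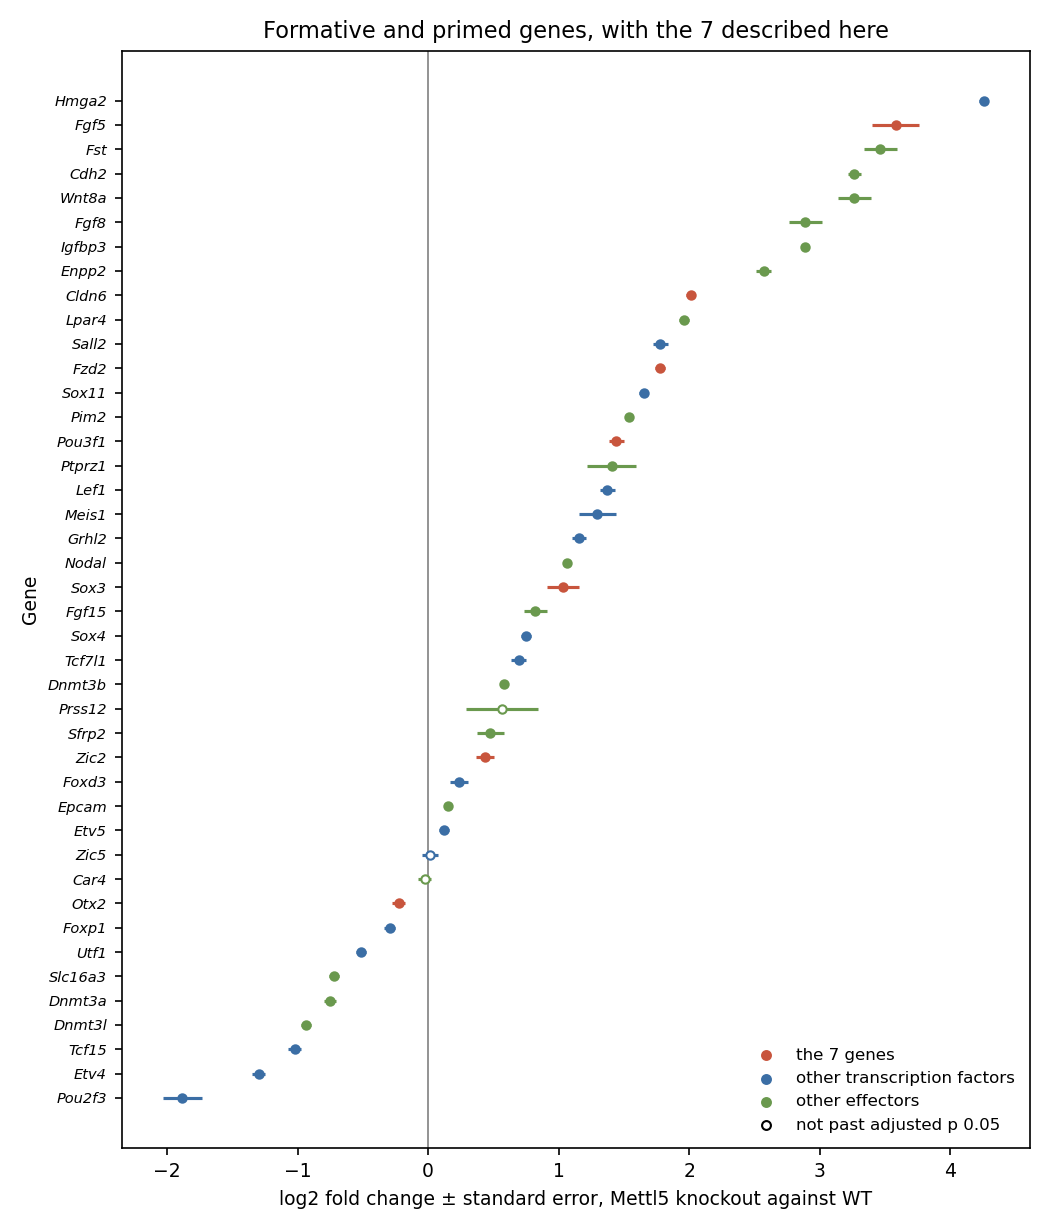
The log2 fold change (knockout against WT, bars: standard error) of the 7 genes in red, 16 other formative or primed transcription factors in blue and 19 effectors in green, with open circles for genes that did not pass an adjusted p of 0.05. Fgf5 stands second after Hmga2, and Otx2 stands among the genes below 0.

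Relatives of the 7 genes were set beside them by family, against 33.6% of all genes called higher and 28.9% lower. Of 17 other FGF ligand genes tested, 7 were higher and 5 lower. Fgf4, the FGF that naive cells secrete, was the most abundant. Its TPM level fell from 57.3 ± 0.996 to 32.5 ± 0.777 (SD, n = 3). Fgf17 went from 16.9 ± 1.11 to 24.4 ± 0.757 and Fgf15 from 3.66 ± 0.254 to 6.18 ± 0.337. The level of Fgf5 in the knockout (2.65) stayed below all 3 of these. Of 15 FGF receptor and feedback genes 9 were higher and 6 lower, or 8 and 6 with equal totals, where the call of Etv5 was lost. The phosphatase genes Dusp4 and Dusp6, which damp ERK signalling, rose by 1.64 and 1.10 on the log2 scale. The 4 receptor genes, named after their values were seen, split: Fgfr1 and Fgfr2 were higher (1.03 and 0.66), Fgfr3 and Fgfr4 lower (-0.66 and -1.46). The other lower genes were Etv4, the feedback inhibitors Spry4 (-0.66) and Spred2 (-0.41), and the immediate early gene Egr1 (-0.18). Spred2 was at -0.01 and not called when centred per chromosome.

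Among the 10 frizzled genes 7 were higher, Fzd2 among them, and 3 lower, beside 33.6% and 28.9% of all genes. With equal totals 6 were higher, and Fzd4 was no longer called. Fzd7, the most abundant over both groups, rose from 10.9 ± 0.297 to 12.8 ± 0.269, Fzd5 fell from 12.2 ± 0.324 to 5.12 ± 0.0552 and Fzd10 rose from 3.40 ± 0.127 to 12.9 ± 0.236 (TPM scale, SD, n = 3). Fzd2 was the fourth of the 10 by level in WT, after Fzd5, Fzd7 and Fzd10, and the third in the knockout, above Fzd5. Fzd1, which shares sequence with Fzd2, went from 0.154 ± 0.0165 to 1.18 ± 0.0247.

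Among 17 claudin genes 7 were higher and 4 lower, beside 33.6% and 28.9% of all genes. Cldn4 rose from 28.1 ± 1.22 to 101 ± 1.99 and Cldn7 from 16.99 ± 0.997 to 49.9 ± 1.57 in TPM level (SD, n = 3), so that the 3 most abundant claudins, Cldn6 included, were all higher. The summed level of the 17 was 104 to 106 in WT and 316 to 321 in the knockout. Of 8 genes for other tight junction proteins 7 were higher and 1, Tjp3, lower (-0.91). The junction genes F11r and Cgn had log2 fold changes of 1.62 and 1.07.

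Relatives of the 4 transcription factors were mostly low. Of 9 relatives tested in the SOXB1, POU3, OTX and ZIC families 2 rose, 2 fell and 5 passed in neither direction. Over all genes 33.6% were called higher and 28.9% lower. Of the 9, 7 were under 1 on the TPM scale in both groups. Sox2, the most abundant, fell from 139.9 ± 8.36 to 90.0 ± 1.38 while Sox3 rose, although Sox3 stayed at 1.51. Zic5 was at 10.5 ± 0.923 and 10.2 ± 0.348 and was not called, and Zic2 was below it in both groups. Pou3f2 and Pou3f3 were at 0.0588 or less in both groups. Pou3f4 rose from 0.0526 ± 0.0249 to 0.345 ± 0.071 (log2 fold change 2.70), and so by a larger factor than Pou3f1 but at a lower level.

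**Figure D4:**
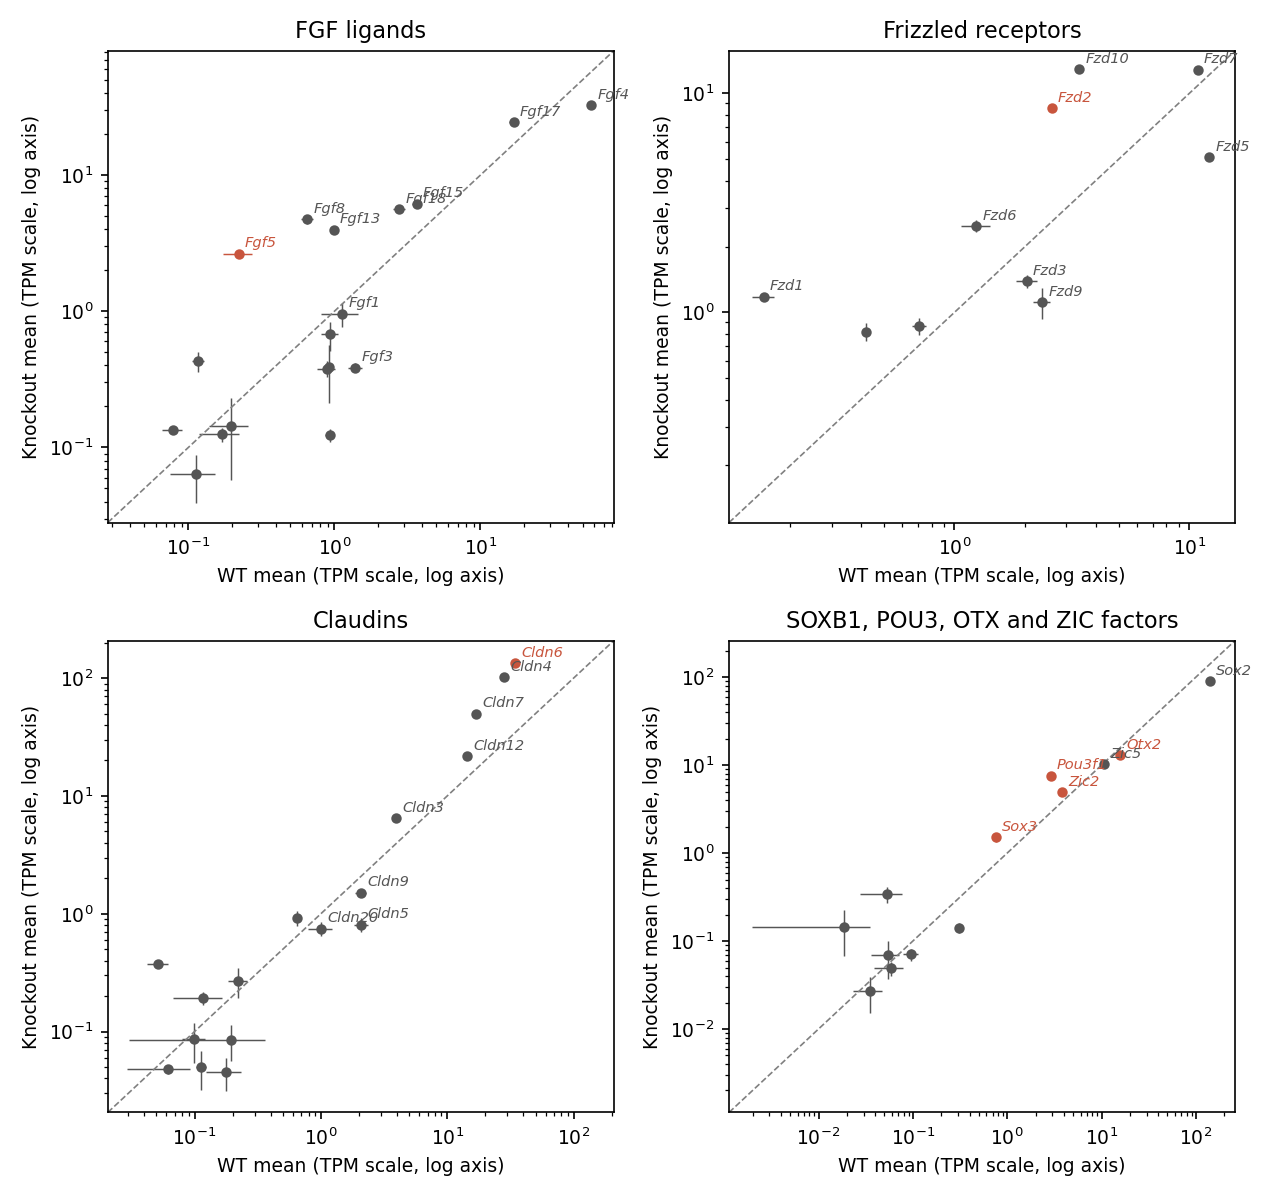
Mean level in WT (horizontal) against knockout (vertical) on the TPM scale, both log axes, for FGF ligands, frizzled receptors, claudins and the SOXB1, POU3, OTX and ZIC factors, with the 7 genes in red, SD bars over 3 libraries and a dashed line of equal levels. Genes at 1 or more in either group are named, and Fgf5, Fzd2, Fzd10, Cldn4 and Cldn6 lie above the line while Fgf4, Fzd5 and Sox2 lie below it.

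Markers of other cell types that also express some of the 7 genes were read in these libraries, against 33.6% of all genes called higher and 28.9% lower. Of 12 neural progenitor markers tested 4 were higher and 3 lower, shares near those of all genes. Their summed level was 92.3 to 93.8 in WT and 82.5 to 85.3 in the knockout. Most of that sum was the neuronal tubulin gene Tubb3, which fell from 80.1 ± 0.178 to 51.6 ± 0.321 (SD, n = 3). Nes, for the progenitor filament nestin, rose from 3.67 ± 0.183 to 20.3 ± 0.291, and Pax3 from 0.0591 ± 0.0332 to 0.627 ± 0.0188. Sox1, a defining neural gene named after its value was seen, went from 0.311 ± 0.0274 to 0.142 ± 0.0182. Of 10 visceral endoderm markers, a tissue that expresses Otx2, 9 were lower and none was higher, with sums of 39.8 to 41.9 and 14.2 to 14.9. Of 11 primitive streak markers 6 were higher and 1 lower, with sums of 4.83 to 5.42 and 82.5 to 88.5. Of 12 epithelial and trophectoderm markers, tissues that express Cldn6, 11 were higher and none lower, with sums of 219 to 221 and 1957 to 2008. Cldn4 and Cldn7 are on that list as well as among the claudins. Of 14 feeder fibroblast markers 11 were higher and 2 lower, with sums of 88.6 to 92.0 and 175 to 177, most of it Fn1. Neurog2, Olig2, Six3, Cer1, Afp, Ttr and Mgp, also on these lists, were not analysed here. Their part in the changes of the 7 genes was not tested.

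Neighbouring genes were read on either side of each of the 7. Tnfrsf12a, a receptor gene that starts 1781 bases from Cldn6 on the other side from Cldn9, rose in TPM level from 20.3 ± 1.54 to 132 ± 4.64 (SD, n = 3), or 2.78 on the log2 scale (SE 0.0531, adjusted p 3.7e-10 in limma). The nearest neighbours of Fgf5, Prdm8 at 65.2 kb and Cfap299 at 52.3 kb, were called higher at levels of 0.0541 ± 0.0165 and 0.282 ± 0.19 in the knockout, and Prdm8 was not called on the TPM column (limma adjusted p 0.147). The noncoding gene 2610035F20Rik, 236 bases from Zic2 and read away from it, was at 0.741 ± 0.0444 and 0.74 ± 0.046 and was not called, nor was Pcca on the other side. The Fzd2 neighbour Gm11627 was at -0.17 on the log2 scale (adjusted p 0.0469 in limma), and Gm11636, on the other side, was not called. Beside Pou3f1, Utp11 was at 0.32, while 4933435F18Rik, 324 kb away, was at -2.36 (adjusted p 0.000186 in limma). Beside Otx2, Gm48909 was at -1.16 (adjusted p 0.00156 in limma) and Gm49151 was not called. Beside Sox3, Gm14661 at 83.4 kb was at -2.38 (adjusted p 0.000199 in limma), from a level of 0.14 ± 0.0234. Gm14662, an antisense gene 223 bases from Sox3, was at 0.15 ± 0.0992 and 0.177 ± 0.0509 and was not called.

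The protein-coding genes most like each of the 7 were found by the Euclidean distance between log2(TPM + 1) values over the 6 libraries. They were Piezo2 (0.11) and Cdkl1 (0.234) for Fgf5, Grpel2 (0.113) and Tbc1d31 (0.113) for Otx2, and Rin1 (0.146) and Elf1 (0.178) for Pou3f1. For Sox3 they were Qpct (0.19) and Cables1 (0.191), and for Zic2 Bmpr2 (0.103) and Kbtbd7 (0.123). Cldn6 lay nearest to Ilk (0.265) and Msn (0.325), and Fzd2 to Fam83h (0.124) and Ptpn9 (0.124). With 6 libraries in 2 groups, this likeness is mostly that of the level and of the difference between genotypes.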

How the data were processed

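The series holds 6 polyA RNA libraries, 3 per genotype, grouped by sample title. Per the submitters' processing notes the authors used kallisto, sleuth and the mm10 build. No version, annotation or strand setting is given in these sources. In the deposited table are 2 signal values per gene and library, scaled reads and TPM, both rescaled between libraries by the authors: the TPM signal sums to 969840 to 1022470. The deposited scaled reads are not whole numbers. Depth was estimated from the step of each library, taken as the value of 1 read: 29.7% to 32.8% of low values (0.5 to 40) were whole multiples of it, to a tolerance of 0.02. Most low values were not, so depth and fragment numbers are approximate.

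The count test planned for whole counts could not be used, so limma 3.58.1 under R 4.3.3, its prior variance following intensity, was fitted to log2(scaled reads + 1) of all 24183 genes with a mean of at least 1, without a replicate block, after a check on simulated data. Names came from GENCODE M21 (GRCm38, the same assembly as mm10), which matched 23846 identifiers. Stretches of 31 bases were compared over its transcripts. Python 3.11.15, pandas 2.3.3, numpy 2.4.6, scipy 1.17.1 and matplotlib 3.10.9 were used.

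Genes named are the 7, their nearest neighbours, the 3 most abundant of each family, up to 3 of each list with the smallest p-values, and the 2 most like each gene. Any other gene was named after its values were seen, Nanog, Etv5, Slc16a3, Fzd1, Fzd4 and Pou3f4 among them. The 7 genes and all lists were chosen with earlier results of these data known. A listed gene is not reported here. Alternatives were other scalings, pseudocounts, filters, weights, a block and leaving out each library.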

Additional observations from a re-analysis of the deposited data

How the results depend on the processing

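Each of the 7 genes kept its direction under 18 alternatives, and each kept its call except Otx2 and Zic2 in the test against a 1.5-fold change (log2 fold changes -0.22 and 0.44). That test, which asks for a larger effect, left 0 of the 7 lower and 5 higher, and called 2869 genes higher and 2178 lower over all genes, against 8137 and 6998. Scaling to equal totals gave 6309 higher and 9147 lower genes, which put 40.8% of all calls in the higher direction, against 53.8%. Leaving out each library gave fold changes of 3.41 to 3.72 for Fgf5, -0.25 to -0.19 for Otx2, 1.41 to 1.5 for Pou3f1, 0.95 to 1.13 for Sox3, 0.40 to 0.48 for Zic2, 1.99 to 2.04 for Cldn6 and 1.76 to 1.79 for Fzd2. With the replicate number as a block, 8183 genes were higher and 6927 lower, and no call among the 7 changed. Deviations of same-numbered libraries correlated at -0.00943, 0.0383 and 0.0443, and those of differently numbered ones at -0.0484 to 0.00711. The labels do not say that a number marks a shared day or culture, so the numbers were not taken to pair the libraries. Depth limits Fgf5 and Sox3 most.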
